A study of Homo sapiens with 34 samples.

Results

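The 9 genes described here were *CDKN1A*, *MDM2*, *GDF15*, *FAS*, *BBC3*, *ZMAT3*, *TP53INP1*, *RRM2B*, and *BTG2*, all known targets of the tumour suppressor p53. They were chosen by name, as were the other gene lists below, with earlier results of these data known. Counts set beside the share of all loci are therefore descriptive. Each of the 9 matched 1 of the 28690 loci of an RNA-seq time course of the *Bmal1*:*luc* line of U2OS cells. U2OS is a human osteosarcoma line that serves as a cellular model of the circadian clock, and the *Bmal1*:*luc* reporter, in which the *Bmal1* promoter drives luciferase, was carried by both groups. All cells were synchronized with dexamethasone and then cultured with 5 mM 6-aminonicotinamide (6AN), an inhibitor of the pentose phosphate pathway (PPP), or with the solvent DMSO as control. Each group had 12 RNA-seq libraries, 1 at each time point from 0 to 44 hr in steps of 4 hr. The study's plots place the labelled 0 hr a day after synchronization, so the libraries labelled 0 hr were not taken before exposure to 6AN.

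p53 is a transcription factor held at a low level in unstressed cells by MDM2, a ubiquitin ligase that marks it for degradation. DNA damage and other stresses stabilize p53, which then binds near its target genes and raises their transcription. The targets include inhibitors of the cell cycle, death receptors and other pro-apoptotic proteins, DNA repair enzymes, and MDM2 itself, which closes a negative feedback loop. U2OS cells are known to lack the expression of *CDKN2A*, whose product p14ARF inhibits MDM2. Here *CDKN2A* had a mean of 0.025 FPKM (fragments per kilobase of transcript, scaled to the mapped reads of the library) in control and was listed at 0 in every 6AN library.

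The control and 6AN tables were normalized separately, each across its own 12 libraries. A difference in level between them was therefore described without a test, whereas trends over time were tested within each table. The depth of each library was known only relative to the median of its own table, and it ranged from 0.578 to 1.31 in control and from 0.697 to 1.56 in 6AN. A locus was tested if its mean over all 24 libraries was at least 1 FPKM. This held for 13979 loci, among them all 9 p53 targets. The mesenchymal markers *RUNX2*, *VIM*, *COL1A1*, *SPARC*, and *FN1* were all expressed, and their summed level ranged from 1612 to 1885 FPKM in control and from 968 to 1372 in 6AN. Among 8 epithelial, blood, and liver markers, the highest mean was that of *EPCAM* (1.02 FPKM in control), and *HBB* was at 0 throughout.

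The start sites of 7 of the 9 genes matched entries of the RefSeq promoter table (GRCh38.p14), with 13 start sites between them. The 250 bases before the start are shown for 5 genes, each of which rose over time in 6AN. Their lower case sequence is 5′ to 3′ on the strand of the gene. Capitals mark the GC box GGGCGG or its complement CCGCCC, the E-box CACGTG that BMAL1 and CLOCK are known to bind, and the TATA element TATAA. They also mark the decamer half-site of p53, RRRCWWGYYY (R is A or G, W is A or T, and Y is C or T). Each was searched on both strands, and only exact matches were marked.
CDKN1A, chr6:36678464-36678713, plus strand: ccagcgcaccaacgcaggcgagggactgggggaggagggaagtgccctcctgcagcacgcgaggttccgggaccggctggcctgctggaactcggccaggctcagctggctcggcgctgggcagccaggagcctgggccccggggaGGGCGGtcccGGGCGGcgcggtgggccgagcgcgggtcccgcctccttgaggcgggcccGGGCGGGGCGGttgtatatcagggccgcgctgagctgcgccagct
BTG2, chr1:203305269-203305518, plus strand: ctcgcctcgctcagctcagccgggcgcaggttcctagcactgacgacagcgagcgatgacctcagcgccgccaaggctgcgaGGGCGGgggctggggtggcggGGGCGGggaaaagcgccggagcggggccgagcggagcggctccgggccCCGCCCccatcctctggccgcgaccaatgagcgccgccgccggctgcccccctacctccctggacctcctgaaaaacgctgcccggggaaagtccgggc
GDF15, chr19:18385908-18386157, plus strand: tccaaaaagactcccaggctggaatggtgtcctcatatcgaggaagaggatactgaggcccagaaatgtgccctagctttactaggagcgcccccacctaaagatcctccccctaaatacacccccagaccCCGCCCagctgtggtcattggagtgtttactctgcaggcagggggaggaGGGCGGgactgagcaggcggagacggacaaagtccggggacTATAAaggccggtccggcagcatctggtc
FAS, chr10:88991181-88991430, plus strand: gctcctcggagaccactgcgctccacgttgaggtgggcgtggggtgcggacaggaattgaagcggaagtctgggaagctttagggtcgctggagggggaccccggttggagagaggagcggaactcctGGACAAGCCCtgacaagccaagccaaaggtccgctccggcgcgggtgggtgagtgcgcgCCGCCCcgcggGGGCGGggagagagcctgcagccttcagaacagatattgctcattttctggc
BBC3, chr19:47232668-47232917, minus strand: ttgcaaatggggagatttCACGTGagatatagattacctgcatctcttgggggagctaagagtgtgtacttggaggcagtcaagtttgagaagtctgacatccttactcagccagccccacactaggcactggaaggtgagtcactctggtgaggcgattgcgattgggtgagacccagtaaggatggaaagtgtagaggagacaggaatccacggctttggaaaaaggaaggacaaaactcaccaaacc

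GC boxes were in 10 of the 13 windows of the p53 targets, against 42.6% of all 35116 windows of this length. Windows of the same gene can overlap and share a box, and by gene the count was 6 of 7, against 46.2% of 27305 genes. *CDKN1A* held 4 of them, and the windows of *BTG2* and *GDF15* held 3 and 2. An exact match to the decamer half-site was found in 1 of the 13 windows (5.57% of all windows). It was at position -122 from the *FAS* start site whose window is shown above. The windows of the other *FAS* start sites, which lie upstream of it, held no exact match. Half-sites with a mismatch were not searched for in any window, so those of the other genes may hold such sites. CACGTG was also found in 1 window, that of *BBC3* at position -232 (6.34% of all windows). TATAA was found only in that of *GDF15*, at position -29 (18.9% of all windows). These matches describe the letters in the windows and were not read as binding sites.

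In control cells, the levels of the 9 genes spanned more than a factor of 10 in FPKM, which is scaled to transcript length. *CDKN1A* was highest, at 126 ± 11.8 FPKM (mean ± SD over 12 time points), followed by *RRM2B* at 52.9 ± 3.34. No library of one overlapped with any library of the other. *BTG2* (27.2 ± 2.38), *BBC3* (23.8 ± 3.02), *MDM2* (23.6 ± 1.48), and *GDF15* (19.0 ± 8.73) came next, and each overlapped with its neighbour in this order. *TP53INP1* (16.8 ± 1.06) overlapped with *GDF15* but not with *ZMAT3* (12.9 ± 0.817), which overlapped with *FAS* (10.7 ± 1.02). In 6AN, *CDKN1A* and *RRM2B* kept the upper places, and *GDF15* moved from place 6 to place 3.

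All 9 genes rose over time in 6AN, and *GDF15* alone passed the test in control. The trend was the slope of log2(FPKM + 1) over 12 libraries, given per 24 hr, and it was called at a limma adjusted p of at most 0.05 over all tested loci. Among these loci, 12.3% rose and 13.1% fell in 6AN, and 3.13% rose and 3.13% fell in control. At an unadjusted limma p under 0.05, 3 of the 9 genes rose in control (*GDF15*, *RRM2B*, and *BBC3*) and 0 fell, against 1450 and 1449 of the 13979 tested loci. The median slope of the 9 genes was 0.44 in 6AN and 0.06 in control, both on the log2 scale, against 0.0 for all loci in either table. The p-values measure the scatter of the libraries around a straight line, since no time point was sampled in more than 1 library per group. In bulk RNA, a rise in every cell cannot be told apart from a larger rise in a fraction of the cells.

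The slope was larger in 6AN than in control for all 9 genes, and the difference of the slopes passed the test for 7. The 7 genes were *FAS*, *MDM2*, *CDKN1A*, *BTG2*, *RRM2B*, *TP53INP1*, and *ZMAT3*, with differences from 0.53 for *FAS* to 0.26 for *ZMAT3*. Over all loci, the difference was positive and called for 4.04% (565 loci) and negative and called for 4.81% (672 loci). This split was 785 to 612 when each library was centred on its median. The constant part of each table has no influence on these slopes, because each table has its own intercept in the fit.

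**Figure D1:**
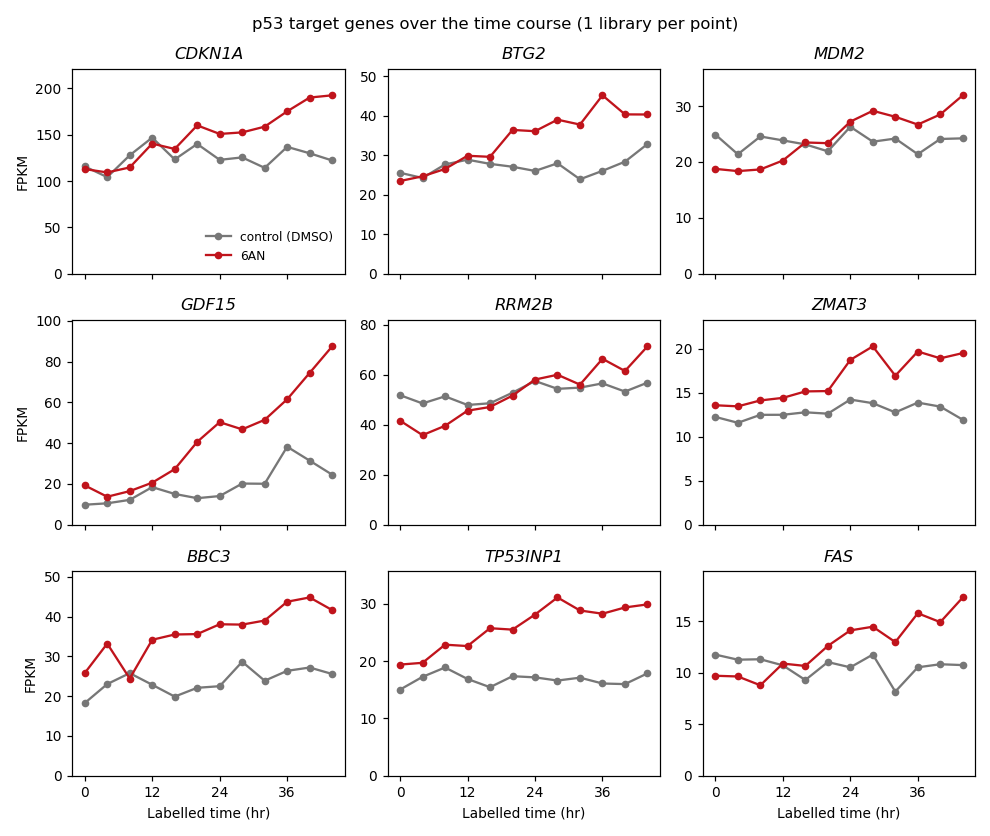
FPKM of the 9 p53 targets against the labelled time in hr, with 1 point per library, control (DMSO) in grey and 6AN in red, and each y axis starting at 0. From 24 hr on, every red point lies above the grey point of the same time in all 9 panels.

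The median ratio of 6AN to control over the 9 genes moved from near 0 to positive over the course. The median over the 9 genes of the log2 ratio of FPKM + 1 was -0.04 at 0 hr and 0.65 at 44 hr. The median over all tested loci stayed between -0.06 and -0.02 at every time point. At 0 hr, 4 of the 9 genes were higher in 6AN, and at each of the 6 time points from 24 hr on all 9 were. Among all tested loci, 20.4% were higher in 6AN at all of these 6 time points and 28.8% were lower. The split at 24 hr was chosen after the values were seen. Over the whole course, 3 of the 9 genes (*GDF15*, *TP53INP1*, and *ZMAT3*) were higher in 6AN at all 12 time points, which held for 13.0% of all tested loci, and none was lower at all 12, against 20.4%.

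**Figure D2:**
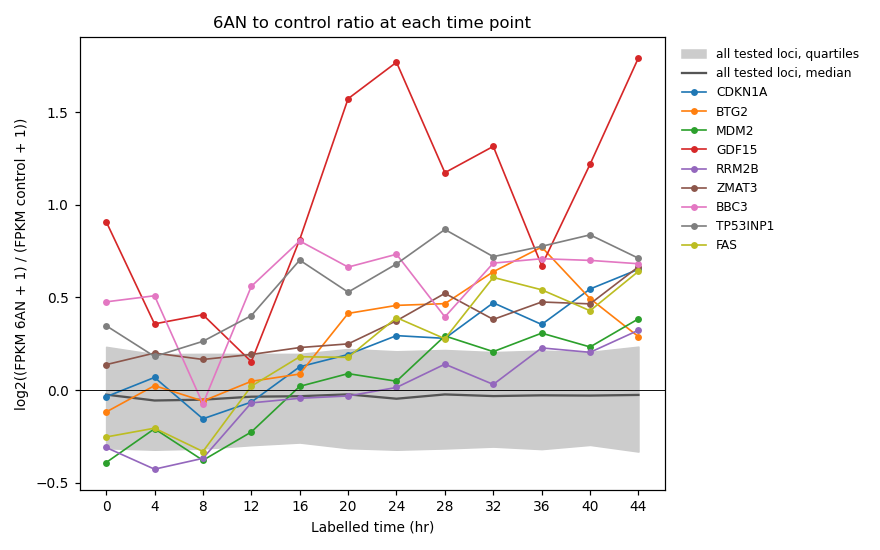
Log2 ratio of FPKM + 1 in 6AN to that in control (y axis) against the labelled time in hr, with 1 line per gene, the median of all 13979 tested loci in dark grey, and their quartiles as a grey band. At 44 hr the genes lie between 0.29 (*BTG2*) and 1.79 (*GDF15*), all above the band, whose upper edge is at 0.23.

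*CDKN1A* (chr6:36676460-36687339, hg38) encodes p21, the inhibitor of cyclin-dependent kinases through which p53 halts the cell cycle. Its FPKM ranged from 104 to 147 in control (median 124) and from 109 to 193 in 6AN (median 152). The groups overlapped, with 7 of the 12 6AN libraries above the highest control library. In 6AN, *CDKN1A* stood at 113 FPKM at 0 hr and 193 at 44 hr, a 1.71-fold change within the table, whereas control went from 116 to 122. The slope was 0.44 ± 0.040 (SE) log2 units per 24 hr in 6AN (limma adjusted p = 4.08e-05) and 0.05 ± 0.066 in control (limma adjusted p = 0.732). The slopes differed by 0.39 ± 0.079 (limma adjusted p = 0.00277). *CDKN1A* was thus at the level of control in the first libraries and above it in every library from 16 hr on.

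*BTG2* (chr1:203305536-203309601), an antiproliferative gene induced by p53, followed a similar course. It ranged from 23.9 to 32.8 FPKM in control (median 27.4) and from 23.5 to 45.2 in 6AN (median 36.2). The lowest 6AN value was that of 0 hr and the highest that of 36 hr, while the highest control value was that of 44 hr. *BTG2* was higher in 6AN at 10 of 12 time points and at all of them from 12 hr on. Its log2 ratio was largest at 36 hr (0.77) and was 0.29 at 44 hr. The slope was 0.47 ± 0.052 in 6AN (limma adjusted p = 0.000109) and 0.08 ± 0.055 in control (limma adjusted p = 0.455), with a difference of 0.39 ± 0.077 (limma adjusted p = 0.00234).

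*MDM2* (chr12:68808172-68845544), the feedback inhibitor of p53, crossed from below to above control. In control it stayed between 21.4 and 26.3 FPKM (median 24.0), and in 6AN it lay between 18.4 and 31.9 (median 25.1). All 4 6AN libraries up to 12 hr were below the control library of the same time, and all 8 from 16 hr on were above it. The mean log2 ratio was -0.18 over the first 6 time points and 0.25 over the last 6, so the mean of 0.03 ± 0.27 (SD, n = 12 time points) over the course holds both signs. The slope in 6AN was 0.43 ± 0.046 (limma adjusted p = 9.85e-05), that in control was 0.00 ± 0.045, and they differed by 0.42 ± 0.066 (limma adjusted p = 0.000319).

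*RRM2B* (chr8:102204501-102239118) encodes the p53-inducible small subunit of ribonucleotide reductase, which supplies deoxynucleotides for DNA repair. It ranged from 47.9 to 57.5 FPKM in control (median 53.1) and from 35.9 to 71.4 in 6AN (median 53.9). All 6 6AN libraries up to 20 hr were below control and all 6 from 24 hr on were above, although the difference at 24 hr was only 0.01 on the log2 scale. The mean level was nearly the same in both groups (52.9 FPKM each). Its slope in 6AN, 0.48 ± 0.049 (limma adjusted p = 7.50e-05), differed from that in control, 0.11 ± 0.033 (limma adjusted p = 0.0790), by 0.38 ± 0.061 (limma adjusted p = 0.000467).

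*FAS* (chr10:88932684-89015785), the death receptor of the extrinsic apoptosis pathway, was the lowest of the 9 in both groups. Its values ran from 8.18 to 11.8 FPKM in control (median 10.8) and from 8.79 to 17.3 in 6AN (median 12.8). *FAS* was lower in 6AN at 0, 4, and 8 hr and higher at all later time points. Its slope was 0.46 ± 0.053 in 6AN (limma adjusted p = 0.000156) and -0.07 ± 0.066 in control (limma adjusted p = 0.615). The difference, 0.53 ± 0.085 (limma adjusted p = 0.000418), was the largest of the 7 that passed. The *FAS* locus of the tables overlaps those of *ACTA2* (mean 8.63 FPKM), *ACTA2-AS1*, and *FAS-AS1*, and the sources used here do not state whether strand was used in the assignment of reads.

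*BBC3* (chr19:47220822-47232766) encodes PUMA, a pro-apoptotic protein of the BCL2 family. It ranged from 18.3 to 28.6 FPKM in control (median 23.5) and from 24.4 to 44.8 in 6AN (median 36.8). Unlike *CDKN1A*, *MDM2*, and *FAS*, *BBC3* was already above control at 0 hr, with 25.8 against 18.3 FPKM, and 8 hr was the 1 time point at which it was not higher. It rose in 6AN, with a slope of 0.38 ± 0.065 (limma adjusted p = 0.00169). In control the slope was 0.19 ± 0.070 (limma adjusted p = 0.133), and the difference of 0.19 ± 0.097, with a 95% interval from -0.01 to 0.39, did not pass the test (limma adjusted p = 0.259). Without the 8 hr time point the difference was 0.09 (limma adjusted p = 0.560). The microRNA loci *MIR3190* (mean 57.5 FPKM) and *MIR3191* (mean 158 FPKM) lie within the *BBC3* locus. Their reads cannot be told apart from those of the gene by position alone. FPKM is scaled to transcript length, so these means do not compare numbers of reads.

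*TP53INP1* (chr8:94925972-94949387), a p53-inducible nuclear protein that promotes cell death and autophagy, was the 1 gene whose groups did not overlap. Control values lay between 15.0 and 18.9 FPKM (median 17.0) and 6AN values between 19.4 and 31.1 (median 26.9). Every 6AN library above every control library was found for 5.89% of all tested loci. The mean log2 ratio was 0.58 ± 0.23 (SD, n = 12 time points). The slope was 0.34 ± 0.047 in 6AN (limma adjusted p = 0.000451) and 0.01 ± 0.045 in control (limma adjusted p = 0.941), a difference of 0.33 ± 0.066 (limma adjusted p = 0.00259).

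*ZMAT3* (chr3:179017225-179071868), which encodes an RNA-binding protein downstream of p53, showed the smallest slope of the 9 in 6AN. It ranged from 11.6 to 14.2 FPKM in control (median 12.7) and from 13.5 to 20.3 in 6AN (median 16.1). *ZMAT3* was higher in 6AN at every time point, by 0.14 on the log2 scale at 0 hr and 0.67 at 44 hr. The slope was 0.32 ± 0.049 in 6AN (limma adjusted p = 0.000816) and 0.06 ± 0.041 in control (limma adjusted p = 0.439), with a difference of 0.26 ± 0.064 (limma adjusted p = 0.0124).

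*GDF15* (chr19:18386158-18389176) encodes a secreted stress cytokine that is a target of p53 and also of the integrated stress response. It was the most variable of the 9, from 9.79 to 38.3 FPKM in control (median 16.8) and from 13.7 to 87.5 in 6AN (median 43.7). The 6AN library was the higher at all 12 time points, with 19.3 against 9.79 FPKM at 0 hr and 87.5 against 24.5 at 44 hr. *GDF15* rose in both groups, with slopes of 1.39 ± 0.11 in 6AN (limma adjusted p = 2.33e-05) and 0.84 ± 0.14 in control (limma adjusted p = 0.00634). The difference of 0.55 ± 0.19, with a 95% interval from 0.17 to 0.94, did not pass the test (limma adjusted p = 0.0668). It did pass without the 36 hr time point, at which control was highest (0.67, limma adjusted p = 0.0236), and with libraries centred on their medians (0.58, limma adjusted p = 0.0499).

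**Figure D3:**
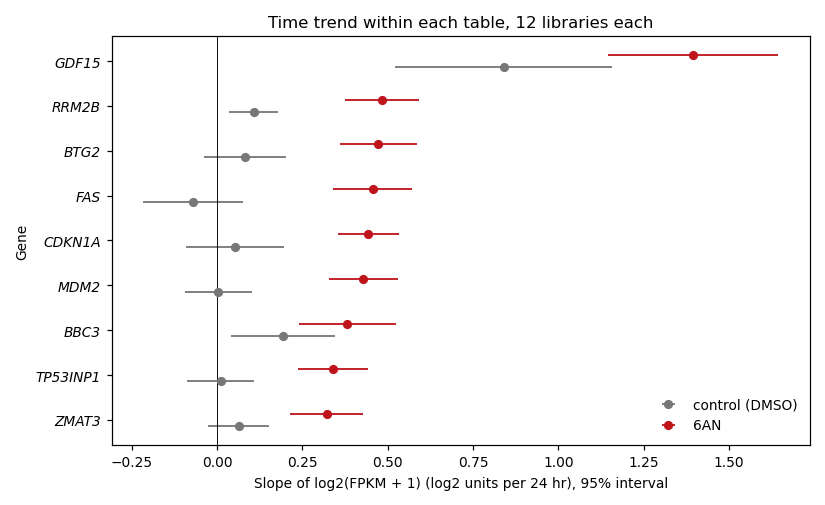
Slope of log2(FPKM + 1) in log2 units per 24 hr (x axis) for each p53 target (y axis), with control in grey, 6AN in red, and bars for the 95% interval of the limma fit over 12 libraries. All 9 intervals for 6AN lie above 0, from 0.32 (*ZMAT3*) to 1.39 (*GDF15*), and the intervals of the groups overlap for *GDF15* and *BBC3*.

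Of the 8 genes listed as regulators of p53, 7 were tested, and 1 of them, the checkpoint kinase *CHEK2*, changed over time, falling in 6AN (slope -0.41, limma adjusted p = 0.00316) with a difference from control of -0.43 (limma adjusted p = 0.00873). The mean log2 ratio was -0.84 ± 0.26 (SD, n = 12 time points) for the kinase *CHEK1*, -0.44 ± 0.34 for *CHEK2*, and -0.43 ± 0.12 for the adaptor *TP53BP1*, all lower in 6AN at 12 of 12 time points. *MDM4*, the relative of MDM2 that also inhibits p53, was higher at 12 of 12 (0.19 ± 0.11). Among all tested loci, 13.1% fell over time in 6AN, 20.4% were lower in 6AN at all 12 time points, and 13.0% were higher.

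A wider list held 35 other p53 targets. Of the 33 that were tested, 18 rose and 1 fell in 6AN, and 2 rose and 1 fell in control. Among all tested loci, 12.3% rose and 13.1% fell in 6AN, and 3.13% rose and 3.13% fell in control. The difference of the slopes was positive and called for 11 and negative and called for 0, against 4.04% and 4.81% of all tested loci. Its median over the 33 was 0.17, against 0.0 for all loci. At an unadjusted limma p under 0.05 the counts were 18 and 0, against 1526 and 1664 of all 13979 tested loci. By role, it was positive and called for 6 of 12 apoptosis genes, 2 of 8 genes of the cell cycle and feedback, 0 of 3 DNA repair genes (1 at an unadjusted p under 0.05), and 3 of 10 genes of metabolism, autophagy, and other roles. In level, 7 of the 33 were higher in 6AN at all 12 time points and 3 were lower at all 12. Among all tested loci, these shares were 13.0% and 20.4%. The median of the mean log2 ratios of the 33 was 0.03, compared with 0.29 for the 9 genes and -0.04 for all tested loci.

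The members of this list that differed most in level went both ways. *SFN*, which encodes the checkpoint protein 14-3-3 sigma, was at 132 FPKM in control and 29.6 in 6AN, a mean log2 ratio of -2.16 ± 0.24 (SD, n = 12 time points), and it fell over time in both groups. *PMAIP1*, which encodes the pro-apoptotic protein NOXA, was also lower in 6AN at every time point (-0.70 ± 0.29). *CCNG1*, which encodes cyclin G1, was higher at every time point (0.70 ± 0.20), with a difference of slopes of 0.25 (limma adjusted p = 0.0213). This call was lost when the 0, 4, 8, or 44 hr time point was left out (limma adjusted p up to 0.104). *TP53AIP1* was low in both groups (0.795 and 1.89 FPKM) and higher in 6AN at 11 time points.

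Genes of related responses are given for comparison. The integrated stress response halts most translation and induces the factor ATF4. In a list of 12 of its targets, 11 were higher in 6AN at all 12 time points, against 13.0% of all tested loci. *SESN2* was in this list and in that of other p53 targets. The largest mean log2 ratios were those of *TRIB3* (2.0 ± 0.48), *DDIT3* (1.81 ± 0.42), *PPP1R15A* (1.30 ± 0.13), and *CHAC1* (1.21 ± 0.68). This difference was present from the start, with a median over the list of 1.14 over the first 6 time points and 0.92 over the last 6, where the 9 p53 targets went from 0.07 to 0.48. Most genes of the list rose in both groups (11 of 12 in 6AN and 8 of 12 in control), against 12.3% and 3.13% of all tested loci. The difference of the slopes was positive and called for 2 genes and negative and called for 2, against 4.04% and 4.81%. *TRIB3*, with 0.68 (limma adjusted p = 0.00217), and *CHAC1*, with -0.99 (limma adjusted p = 0.000359), were on opposite sides.

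All 16 cell division genes of a further list fell over time in 6AN, against 13.1% of all tested loci. In control, 0 of the 16 were called by limma or by Spearman's rank test (2 at an unadjusted limma p under 0.05). Their median slope was -0.72 in 6AN and -0.10 in control, and the difference was negative and called for 15, against 4.81% of all loci. In level they were lower in 6AN, 12 of 16 at every time point and all 16 at every time point from 24 hr on. Among all tested loci, these shares were 20.4% and 28.8%. *BIRC5*, which encodes survivin, had a mean log2 ratio of -1.16 ± 0.47, and the proliferation marker *MKI67* one of -1.04 ± 0.54. The kinases *AURKB* and *BUB1* had ratios of -0.98 ± 0.46 and -0.98 ± 0.45. The median log2 ratio over the list was -0.45 over the first 6 time points and -1.22 over the last 6, where the 9 p53 targets went from 0.07 to 0.48. By these medians, the cell division genes were already lower in 6AN over the first 6 time points, where the median of the p53 targets was near 0. Both medians then moved in opposite directions. Single p53 targets differed from control over the first 6 time points, from -0.21 for *RRM2B* to 0.70 for *GDF15*. Whether either group of genes takes part in the change of the other was not tested.

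**Figure D4:**
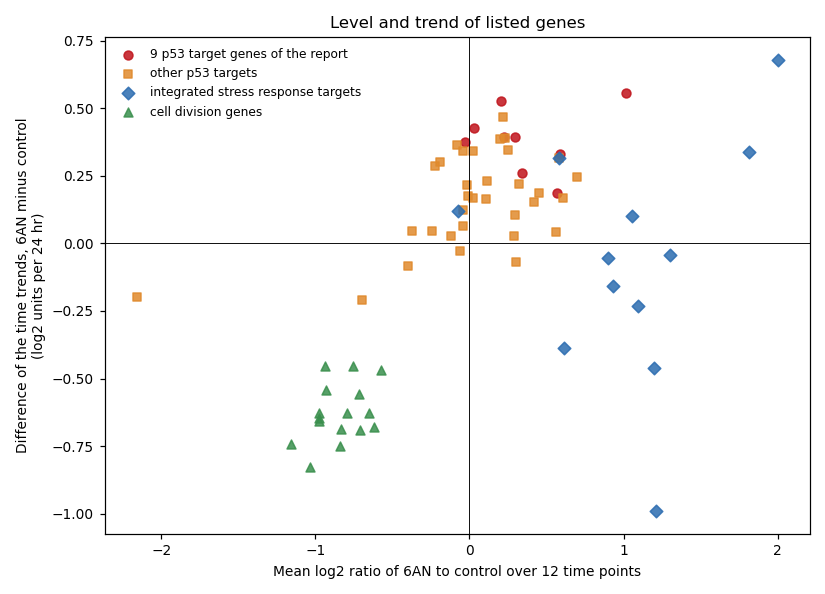
Mean log2 ratio of 6AN to control over 12 time points (x axis) and difference of the time trends, 6AN minus control, in log2 units per 24 hr (y axis), with 1 point per tested gene. The 9 p53 targets (red) all lie above 0 on the y axis, the cell division genes (green) all lie below 0 on both axes, and 11 of 12 integrated stress response targets (blue) lie to the right of 0.

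Over the 36 pairs of the 9 genes, Pearson's r of log2(FPKM + 1) across 12 libraries ranged from 0.782 to 0.977 in 6AN (median 0.923) and from -0.234 to 0.667 in control (median 0.169). Between *CDKN1A* and the other 8 genes it ranged from 0.836 to 0.959 in 6AN (median 0.916) and from -0.069 to 0.464 in control (median 0.177). Between *MDM2* and the others it ranged from 0.838 to 0.959 in 6AN and from -0.158 to 0.281 in control. The libraries of a table share a time axis, so any pair of genes with a steady trend gives a high r, and these values are descriptive. Outside the 9 genes, those most like *CDKN1A* were *NSA2* (0.993), *RPL27* (0.981), and *IL18* (0.980) in 6AN and *ZFAND3* (0.938), *PPIB* (0.935), and *SNX3* (0.924) in control. Those most like *MDM2* were *DYNC2LI1* (0.987), *TNFRSF10B* (0.987), and *DNAJC10* (0.985) in 6AN and *KLHL20* (0.918), *AP5M1* (0.860), and *IQCB1* (0.851) in control. *TNFRSF10B*, the death receptor DR5, is itself in the list of other p53 targets.

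A 24 hr rhythm was not called for any of the 9 genes in either group. The permutation rank test used here follows the idea of RAIN and looks for a rise and a fall of any peak time. With calls at p of at most 0.01, it called 1.04% of tested loci in control and 1.11% in 6AN. These shares are close to what this threshold gives in data without rhythms, so a missing call does not show that a rhythm is absent. RAIN itself, at the same p in the study, called a larger share of expressed transcripts. Among the 9 genes, p was at least 0.0960 in control, where *CDKN1A* came lowest, and at least 0.212 in 6AN, so 0 of 9 had an unadjusted p under 0.05. Harmonic regression called 0 of 9 in each group. After a linear trend was removed, *GDF15* in 6AN had p = 0.00610 in the permutation rank test, with an adjusted p of 0.673. In the same permutation rank test without the trend, *FAS* in 6AN had p = 0.0133 and *GDF15* in control had p = 0.0429, with adjusted p of 0.720 and 0.770. No locus passed an adjusted p of 0.05 in this test. The smallest adjusted p over all loci was 0.0839 in control and 0.340 in 6AN, and 705 and 586 loci had an unadjusted p under 0.05.

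BMAL1 and CLOCK, the transcription factors that drive the circadian clock, were mapped by ChIP-seq after 24 hr with 6AN or DMSO, with 1 library per antibody and group. By the study's plots, the RNA libraries nearest to this length of exposure were those labelled 0 hr, not those labelled 24 hr. The shared BMAL1/CLOCK sites numbered 147 in control and 439 in 6AN, and 0 of them were assigned to any of the 9 genes. With at most 439 sites against 13979 tested loci, few loci can have one. The share of all loci with such a site was not computed, so the 0 was not read as a trait of these genes. In the merged list of 4001 peaks called in at least 1 library, 5 peaks lay within 10 kb of 4 of the 9 loci, and 32.2% of all tested loci had such a peak. Each of the 5 was called in a single library. *CDKN1A* had 2 peaks, both of BMAL1 in 6AN. The stronger (chr6:36680197-36680397, HOMER score 39.3) was centred 1583 bases downstream of the start site that follows the sequence shown above, within the locus, and ranked 151 of all peaks by score. The other (chr6:36667125-36667325, score 18.4) lay upstream of the locus.

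*BTG2* had a CLOCK peak in 6AN (chr1:203305490-203305690, score 16.5), centred 71 bases downstream of its start site, so that it reaches into the 3′ end of the promoter sequence shown. *BBC3* had a BMAL1 peak in control (chr19:47230406-47230606, score 16.1), centred 2161 bases downstream of the start site, and not at the CACGTG of its promoter. *RRM2B* also had a BMAL1 peak in control (chr8:102238967-102239167, score 17.4) within its locus. The scores of these 3 peaks were exceeded by more than 50% of all merged peaks. No peak lay within 10 kb of *MDM2*, *GDF15*, *FAS*, *ZMAT3*, or *TP53INP1*. With 1 library per antibody and group, a peak listed in only one group was not tested for a difference in binding.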

How the data were processed

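RNA-seq measured 28690 loci in 24 libraries, and 10 ChIP-seq libraries were made. The authors deposited FPKM per locus in 2 tables, 1 per group, each normalized across its own libraries. TopHat, Cufflinks, Bowtie, Bowtie2, and HOMER are named in the submitters' processing notes, with build hg38. RNA was extracted in triplicate per the study's methods, and whether extracts were pooled is not given in the sources used here. The deposited HOMER score and the names of the peaks in each library were taken from the merged list. The number of unmapped columns left out was 0.

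The 9 genes and all lists were chosen with earlier results of these data known. FPKM were analysed as log2(FPKM + 1), with 0.1 as the other pseudocount, for loci with a mean of at least 1 FPKM. Slopes over time and their difference between groups were fitted with limma 3.58.1 in R 4.3.3 (moderated test with a mean-dependent prior), two-sided, with Benjamini-Hochberg adjustment over 13979 loci. The permutation rank test was one-sided, folded 12 time points on 24 hr into 6 phases of 2, and compared 18 shapes with 1000000 random orders. Python 3.11.15, NumPy 2.4.6, pandas 2.3.3, SciPy 1.17.1, Numba 0.67.0, and matplotlib 3.10.9 were used. Scripts were tested on simulated data. Depth was read from the FPKM steps of loci with few reads and is relative, so no counting error was computed. Genes were named by rule: the 9 genes, at most 4 genes per list with the largest absolute mean log2 ratio, and the 3 loci most like *CDKN1A* and *MDM2*. A gene that the rule also names is not reported here. Labelled hours were used as given. Alternatives covered pseudocount, centring, the filter on low FPKM, the limma prior, Spearman's rank test, other rhythm tests, and leaving out each time point.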

Additional observations from a re-analysis of the deposited data

Results flagged for a closer look

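The time trends of 7 of the 9 p53 targets differed between 6AN and control, by the limma test of the agent by time interaction over 24 libraries. The difference, 6AN minus control in log2 units per 24 hr, was 0.53 for *FAS*, 0.42 for *MDM2*, 0.39 for *CDKN1A*, 0.39 for *BTG2*, 0.38 for *RRM2B*, 0.33 for *TP53INP1*, and 0.26 for *ZMAT3*. By the same test, it was positive for *TRIB3* (0.68) and *CCNG1* (0.25). It was negative for *CHAC1* (-0.99), *MKI67* (-0.83), *BIRC5* (-0.74), *AURKB* (-0.66), *BUB1* (-0.65), and *CHEK2* (-0.43).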

How the results depend on the processing

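Among the 9 p53 targets, the slope in 6AN was positive and called for all 9, and the difference of the slopes was called for the same 7, under every alternative fit, with the exception that *GDF15* joined them with centred libraries (0.58) and without 36 hr (0.67). The median of their mean log2 ratios was 0.29, with 0.25 to 0.33 when 1 time point was left out. Slopes in control near 0 changed sign without passing the test (ranges without 1 time point: *MDM2* -0.0291 to 0.0292, *TP53INP1* -0.0354 to 0.0401, *CDKN1A* -0.0029 to 0.0819). *MDM2* gave -0.00488 with centred libraries, and its sign also changed without 4, 32, 40, or 44 hr, that of *TP53INP1* without 0 or 44 hr, and that of *CDKN1A* without 4 hr. Differences of slopes near 0 also changed sign, for *MDM4* (-0.0879 to 0.00050 without 1 time point) and *PPP1R15A* (-0.0775 to 0.0058). The cause was not tested. With a linear trend removed, 1 of the 9 genes was called rhythmic in 6AN instead of 0. Over all loci, the positive differences called fell from 565 to 320 without 0 hr and 370 without 4 hr, the loci that fell in 6AN from 1832 to 1125 without 0 hr, and those that fell in control from 438 to 244 without 0 hr and 287 without 40 hr. A rhythm threshold of 0.05 gave 705 loci in control and 586 in 6AN instead of 146 and 155. With no filter, the share of loci higher in 6AN at all 12 time points was 8.43% instead of 13.0%. The replicate numbers of the labels pair no libraries, since every group holds 1. With the 6AN and control libraries of each time point paired as a block, an alternative chosen after seeing the data, the difference of the slopes was called for 7 of the 9 genes, and no call on a named gene changed. Over all loci this fit called 705 positive and 795 negative differences, instead of 565 and 672. Depth limits what can be said of *TP53AIP1* and other genes near 1 FPKM.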
